A study of Mus musculus with 6 samples.

Results

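The replication-dependent histone genes are the clustered genes with a mouse symbol, current or older, that begins with Hist1h, Hist2h, Hist3h or Hist4h. Current symbols that begin with H2ac, H2bc, H3c or H4c also count. The H1f genes among them were taken by their older Hist names, so H1f0, H1f7, H1f8 and H1f10 are not included. RefSeq's genes on GRCm38.p6 include 71 such genes, 70 of them under an older Hist name and 1 (H2ac5-ps) under the newer symbol alone, and 4 are pseudogenes. Of the 71 genes, 50 had a named probe on the array, and 45 of these were tested among 23850 genes or unnamed transcripts. The 21 genes with no named probe were H3c2, H3c6, H3c10, H3c14, H3c15, H4c1, H4c2, H4c6, H4c18, H2ac6, H2ac8, H2ac14, H2ac18, H2ac24, H2ac5-ps, H2bc8, H2bc9, H2bc11, H2bc12, H2bc13 and H4bc24. The 5 with a probe that was too dim to test were H1f6, H2ac7, H2af-ps2, H2bu1-ps and H2bc22. The 45 were compared between NIH3T3 cells, an established line of mouse embryonic fibroblasts, that had been infected with a retroviral pCX4bsr vector expressing GGCT (GGCT-OE), and NIH3T3 cells with the control vector (empty). GGCT is gamma-glutamylcyclotransferase, an enzyme of glutathione turnover. Both groups were grown with 2% serum and hybridised as 3 arrays each, numbered by experiment (replicates 1 to 3). The labels do not say whether the populations were made anew for each experiment, so p-values reflect only the variation among these 3. The promoter that drives the transgene, its species of origin and the use of pools or clones are not given in the sources used here.

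Histones package DNA into nucleosomes: H2A, H2B, H3 and H4 form the core, and the linker histone H1 binds where the DNA enters and leaves it. The replication-dependent genes lie in clusters, have no introns in their usual form, are transcribed during S phase with the coactivator NPAT, and give mRNAs that end in a stem-loop bound by SLBP in place of a poly(A) tail. Several H2B genes, H2BC21 among them in human cells, are known to give polyadenylated mRNA as well. The labelling kit primes cDNA synthesis from poly(A), so the arrays may report only a part of the stem-loop mRNA, and a change in level and a change in the polyadenylated share cannot be told apart here.

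Promoter windows are shown because the histone genes share promoter motifs that the choice of genes did not use. RefSeq windows of 250 bases before to 50 bases after the annotated start (GRCm38.p6) matched 62 of the 71 genes, with 63 windows, since H2bc6 has a window at each of 2 starts. The octamer, searched as ATTTGCAT on both strands, is a binding sequence of the POU2F1 protein and occurred in 22.2% of the histone windows, against 1.74% of all 32851 windows. It was found in 7 of 18 H2A windows and 7 of 17 H2B windows, and in none of the 6 H1, 10 H3 and 12 H4 windows. TATAAA, searched on both strands, occurred in 55.6% of the histone windows and 13.6% of all windows. CCAAT, the binding sequence of NF-Y, occurred on either strand in 85.7% of the histone windows and 37.4% of all windows, and all H1, H2A, H2B and H3 windows but only 3 of the 12 H4 windows held it. Matches of different motifs can share a few letters and were counted for each motif, and 20 of the histone windows overlap the window of another histone gene. Windows of genes on which the results below turn follow, 5′ to 3′ on the gene's strand, with the octamer, TATAAA and CCAAT matches (ATGCAAAT and ATTGG on the opposite strand) in capitals. H2bc6 and H2bc23 were lower in GGCT-OE cells, H1f5 and H2aw were higher, and H2bc18 had the highest difference of the H2B genes.
H2bc6 upstream window, chr13:23621045-23621344, minus strand: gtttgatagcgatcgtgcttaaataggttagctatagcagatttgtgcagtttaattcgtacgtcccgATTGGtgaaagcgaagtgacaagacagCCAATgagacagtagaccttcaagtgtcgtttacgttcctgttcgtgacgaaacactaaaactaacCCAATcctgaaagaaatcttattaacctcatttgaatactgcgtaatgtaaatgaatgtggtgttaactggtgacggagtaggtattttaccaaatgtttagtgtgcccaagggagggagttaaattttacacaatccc
H2bc6 downstream window, chr13:23585921-23586220, minus strand: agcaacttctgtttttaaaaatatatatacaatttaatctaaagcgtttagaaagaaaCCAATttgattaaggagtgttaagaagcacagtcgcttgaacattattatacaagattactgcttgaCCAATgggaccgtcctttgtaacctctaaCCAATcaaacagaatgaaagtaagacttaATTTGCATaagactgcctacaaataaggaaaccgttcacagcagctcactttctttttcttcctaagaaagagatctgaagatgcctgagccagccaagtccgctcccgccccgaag
H2bc23, chr13:21810150-21810449, minus strand: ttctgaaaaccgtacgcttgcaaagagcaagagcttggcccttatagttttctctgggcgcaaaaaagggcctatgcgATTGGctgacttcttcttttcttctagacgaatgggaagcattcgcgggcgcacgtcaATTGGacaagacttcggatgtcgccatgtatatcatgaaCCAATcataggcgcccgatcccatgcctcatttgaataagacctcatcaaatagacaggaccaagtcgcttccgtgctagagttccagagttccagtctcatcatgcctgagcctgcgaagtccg
H2bc18, chr3:96269450-96269749, plus strand: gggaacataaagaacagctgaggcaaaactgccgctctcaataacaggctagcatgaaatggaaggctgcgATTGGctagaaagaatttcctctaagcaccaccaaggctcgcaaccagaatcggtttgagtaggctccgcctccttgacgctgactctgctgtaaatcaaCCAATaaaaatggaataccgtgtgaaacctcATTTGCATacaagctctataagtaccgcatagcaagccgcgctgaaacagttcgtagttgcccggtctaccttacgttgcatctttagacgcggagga
H1f5, chr13:21780576-21780875, minus strand: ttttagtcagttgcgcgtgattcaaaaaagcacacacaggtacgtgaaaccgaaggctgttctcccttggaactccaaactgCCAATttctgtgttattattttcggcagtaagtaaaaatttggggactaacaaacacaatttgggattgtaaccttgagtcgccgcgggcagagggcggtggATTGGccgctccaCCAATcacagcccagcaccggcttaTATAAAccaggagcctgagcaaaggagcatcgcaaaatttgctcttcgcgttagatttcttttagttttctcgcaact
H2aw, chr11:58954435-58954734, plus strand: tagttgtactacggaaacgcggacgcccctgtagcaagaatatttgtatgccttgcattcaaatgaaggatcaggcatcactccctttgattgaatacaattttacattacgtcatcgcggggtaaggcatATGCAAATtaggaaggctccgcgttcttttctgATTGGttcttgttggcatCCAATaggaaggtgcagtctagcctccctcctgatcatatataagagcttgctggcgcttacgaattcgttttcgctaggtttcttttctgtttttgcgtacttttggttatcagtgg
The downstream H2bc6 window holds an octamer 67 bases before the start, as does the H2bc18 window 48 bases before it. The upstream H2bc6 window and the H2bc23 window hold CCAAT matches and neither of the other motifs. Among tested genes, the octamer was in 4 of 19 windows of genes called higher, 1 of 3 windows of genes called lower and 5 of 19 windows of genes not called. The 3 windows of genes called lower come from 2 genes, H2bc6 with 2 windows and H2bc23 with 1. No window was used for H2bc4, H2bc21, H3c1, H3c7 and H4c14. A match is a description of letters and not a bound site.

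More histone genes were higher than lower in GGCT-OE cells, and the lower ones were all H2B genes. Levels are log2 signal relative to the array's 75th percentile, differences are GGCT-OE minus empty, and a gene was called at a Benjamini-Hochberg adjusted p under 0.05 from limma over all 23850 features. By this rule 21 of the 45 genes were higher and 4 were lower, beside 17.5% of all features called higher and 17.3% called lower. The median difference of the 45 genes was 0.73, against 0.02 over all features. It was 0.75 on slide 1, which held experiment 1, and 0.72 on slide 2, which held experiments 2 and 3. The difference was positive for 36 of the 45 genes, and 35 were higher in all 3 pairs of experiments. The arrays of the groups were fully separated for 32 of the 45 genes, beside 49.4% of all features. Of these, 27 were higher and 5 lower, beside 25.4% and 23.9% of all features. A fit that blocks on the experiment called 34 higher and 4 lower, beside 27.3% and 26.0% of all features. In bulk RNA more or fewer cells in S phase and more or less histone mRNA per cell cannot be told apart, and cell cycle shares were not measured. Leaving out single arrays kept 12 to 20 of the 21 higher calls, and fewest were kept without empty replicate 3. Leaving out both arrays of replicate number 2 or 3 kept 6 and 5 of them, and leaving out number 3 also left 2 of the 4 lower calls (H2bc4 and H2bc6).

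**Figure D1:**
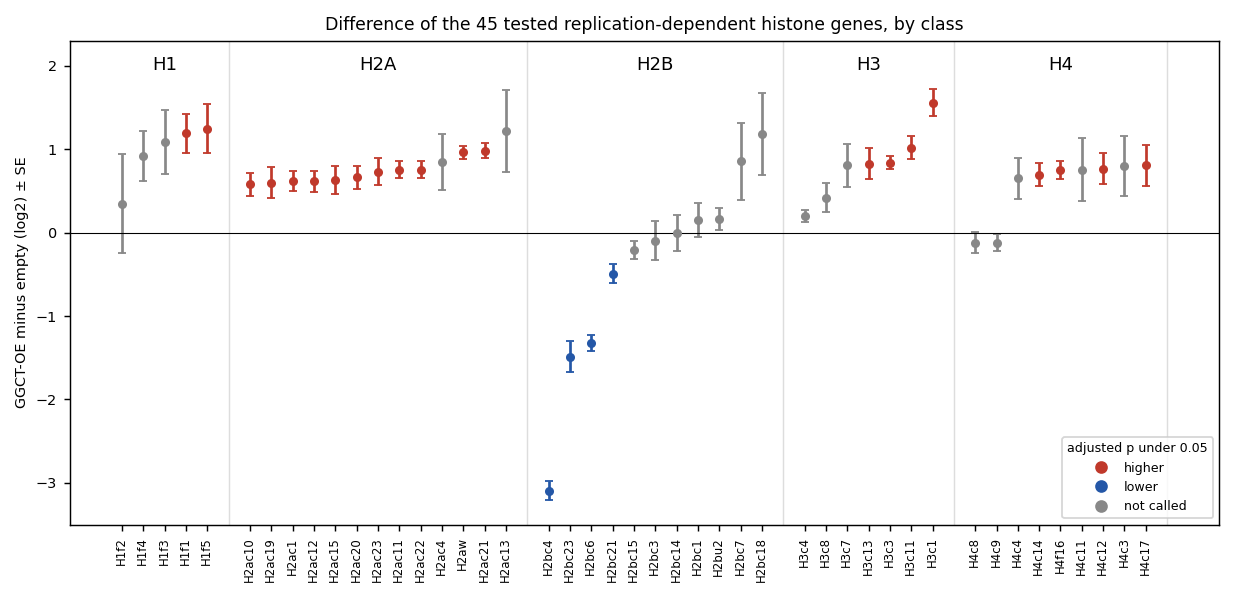
Difference between GGCT-OE and empty cells (log2, vertical axis) with its standard error for each of the 45 tested histone genes, grouped by class and ordered by difference, with colour for the call. All 13 H2A genes lie above 0, while 4 H2B genes are called lower, led by H2bc4 at -3.09.

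The 5 tested linker histone genes were all higher on average in GGCT-OE cells. H1f5 was called higher, as was H1f1, which entered the test only through the GGCT-OE arrays and lends the class no support. Without H1f1, 1 of 4 linker genes was called higher, beside 17.5% of all features. H1f5 (H1.5) measured 4.0, 4.84 and 4.76 in GGCT-OE cells, against 2.83, 3.60 and 3.44 in empty cells. The lowest GGCT-OE array lay above the highest empty array, and in both groups experiment 1 was lowest. Its difference was 1.25 ± 0.30 (SE, limma adjusted p = 0.0211), or 2.37-fold. H1f1 (H1.1) measured -3.88, -4.18 and -4.06 in GGCT-OE cells, against -4.78, -5.69 and -5.22 in empty cells. It is a dim probe, well above background on all 3 GGCT-OE arrays and on 1 of 3 empty arrays. Its difference of 1.19 is therefore a description, and it was 0.28 with normexp background correction. With a filter over all 6 arrays H1f1 is not tested, and 20 histone genes are called higher. Without replicate number 2 or 3 neither call was kept. The call of H1f5 was also lost without GGCT-OE replicate 2, GGCT-OE replicate 3 or empty replicate 3, and with no filter on dim probes.

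The remaining linker genes were lowest in experiment 1 in both groups. H1f2 (H1.2) measured 0.17, 1.88 and 1.70 in GGCT-OE cells, against -0.05, 1.49 and 1.27 in empty cells. The groups overlapped, and the mean of slide 2 exceeded that of slide 1 by 1.53. H1f3 (H1.3) and H1f4 (H1.4) had differences of 1.09 ± 0.38 and 0.92 ± 0.30 (SE) and were not called (limma adjusted p = 0.0737 and 0.0594). With the experiment number as a block all 5 linker genes were called higher, beside 27.3% of all features. H1f1 is among the 5, and here too it lends the class no support. H1f6, the testis linker histone H1t, was not well above background on all arrays of either group and was not tested.

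**Figure D2:**
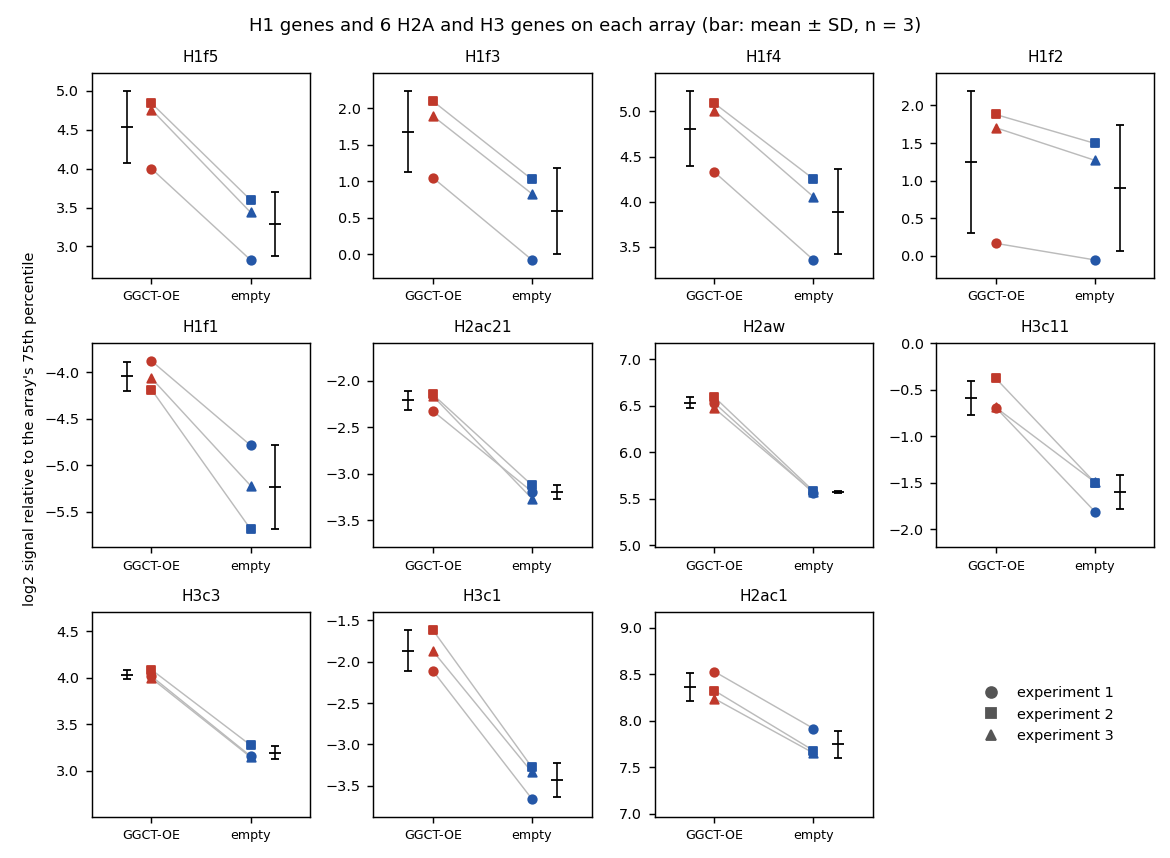
Level on each array (log2 signal relative to the array's 75th percentile, vertical axis) of the 5 tested H1 genes and of 6 H2A and H3 genes, GGCT-OE left and empty right, with lines joining arrays of 1 experiment and bars for the mean ± SD (n = 3). H1f2 spans 0.17 to 1.88 in GGCT-OE cells and overlaps the empty arrays, whereas H2aw lies between 6.47 and 6.59 in GGCT-OE cells and between 5.56 and 5.58 in empty cells.

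Of the 13 tested H2A genes, 11 were called higher and none lower, beside 17.5% and 17.3% of all features. Among these 11 calls, 9 are those of the probes of like level described below. All 13 differences lay between 0.58 and 1.22. H2aw, the H2A gene of the Hist3 cluster, measured 6.53, 6.59 and 6.47 in GGCT-OE cells, against 5.56, 5.58 and 5.57 in empty cells. Arrays within a group lay close together and the groups were far apart. Its difference was 0.96 ± 0.076 (SE, limma adjusted p = 0.000455). H2ac21 (Hist2h2ab) measured -2.32, -2.15 and -2.16 in GGCT-OE cells, against -3.19, -3.12 and -3.27 in empty cells. The groups did not overlap, and the difference was 0.98 ± 0.091 (SE, limma adjusted p = 0.000767), or 0.51 with normexp background correction. Both calls held in each of the 21 alternatives.

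Probes of 9 H2A genes lay in a narrow band of levels and differed alike between groups. These were H2ac1, H2ac10, H2ac11, H2ac12, H2ac15, H2ac19, H2ac20, H2ac22 and H2ac23, most of which encode nearly identical proteins, and they were grouped after their values were seen. Over the 9 probes the GGCT-OE arrays spanned 7.88 to 8.79 and the empty arrays 7.16 to 8.18. All 9 were called higher, beside 17.5% of all features, with differences between 0.58 and 0.75. None of the 9 overlapped between groups, beside 25.4% of all features separated with GGCT-OE higher. H2ac22 measured 8.16, 7.98 and 7.90 in GGCT-OE cells, against 7.33, 7.28 and 7.16 in empty cells, and had a difference of 0.75 ± 0.10 (SE, limma adjusted p = 0.00284). H2ac11 measured 8.58, 8.42 and 8.35 in GGCT-OE cells, against 7.78, 7.73 and 7.57 in empty cells, with the same difference. H2ac10 measured 8.57, 8.29 and 8.25 in GGCT-OE cells, against 7.99, 7.68 and 7.70 in empty cells. Its groups did not overlap. H2ac15 measured 8.49, 8.13 and 8.09 in GGCT-OE cells, against 7.90, 7.46 and 7.47 in empty cells. H2ac20 measured 8.51, 8.23 and 8.12 in GGCT-OE cells, against 7.81, 7.54 and 7.52 in empty cells. H2ac23 measured 8.47, 8.17 and 8.08 in GGCT-OE cells, against 7.76, 7.42 and 7.34 in empty cells. For each of these the lowest GGCT-OE array exceeded the highest empty array. H2ac12 measured 8.79, 8.61 and 8.46 in GGCT-OE cells, against 8.18, 7.94 and 7.89 in empty cells, with a difference of 0.62. On all 9 probes experiment 1 was highest within each group.

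H2ac1 encodes TH2A, a variant known from testis, and it was among the 9. It measured 8.53, 8.33 and 8.24 in GGCT-OE cells, against 7.92, 7.68 and 7.65 in empty cells (difference 0.61 ± 0.12, SE, limma adjusted p = 0.0107). Of the 5 testis markers, Ddx4 and Sycp3 stayed at background on all arrays. Prm1 and Prm2 were well above background on all arrays, and Tnp1 on 3 GGCT-OE and 2 empty arrays. These 3 were tested and none was called. The replication-independent H2aj, which encodes a closely similar H2A, measured 8.43, 8.19 and 8.14 in GGCT-OE cells, against 7.93, 7.60 and 7.58 in empty cells. Its difference was 0.55, and the call was lost without any 1 of the GGCT-OE arrays or without empty replicate 2 or 3. It held in 13 of the 21 alternatives. The probe sequences were not used here, so whether these probes bind each other's transcripts was not tested. Counting the 9 probes as 1 member leaves 13 genes called higher. Of the 9 calls, those of H2ac19 and H2ac15 were lost in each of the runs without GGCT-OE replicate 1, 2 or 3 or empty replicate 2 or 3. Those of H2ac20, H2ac23, H2ac12 and H2ac10 were lost without empty replicate 2 or 3, and all 9 without replicate number 2 or 3. With no filter on dim probes the calls of H2ac19, H2ac15, H2ac20, H2ac23, H2ac12 and H2ac10 were lost as well.

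Away from that group, H2ac4 (Hist1h2ab) measured 5.97, 6.88 and 6.78 in GGCT-OE cells, against 5.13, 6.03 and 5.94 in empty cells. H2ac13 (Hist1h2ai) measured 1.17, 2.56 and 2.37 in GGCT-OE cells, against -0.01, 1.39 and 1.06 in empty cells. Both were higher in all 3 pairs, and both overlapped between groups with experiment 1 lowest on each side. Neither was called without the block, with limma adjusted p = 0.10 and 0.108, and both were called higher with it.

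H2B genes went the other way or were not called. None of the 11 tested was called higher and 4 were called lower, beside 17.5% and 17.3% of all features. The median difference was -0.10. H2bc4 (Hist1h2bc) measured 1.01, 1.00 and 0.77 in GGCT-OE cells, against 4.18, 3.89 and 3.97 in empty cells. The groups were separated by far more than the spread within either, and the difference was -3.09 ± 0.12 (SE, limma adjusted p = 4.25e-05), 8.53-fold lower in GGCT-OE cells. It was the largest difference in size among the 45 genes.

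H2bc6 (Hist1h2be) measured -2.65, -2.54 and -2.46 in GGCT-OE cells, against -1.10, -1.28 and -1.29 in empty cells. The groups did not overlap, and the difference was -1.32 ± 0.097 (SE, limma adjusted p = 0.000339), or 2.50-fold lower. H2bc23 (Hist1h2bq) measured -3.57, -4.15 and -4.12 in GGCT-OE cells, against -2.35, -2.67 and -2.36 in empty cells. It was likewise lower on every GGCT-OE array than on any empty array, by 2.80-fold, with a difference of -1.49 ± 0.19 (SE, limma adjusted p = 0.00231). With normexp background correction the differences of these dim probes were -0.80 for H2bc6 and -0.62 for H2bc23, both still called. The call of H2bc23 was lost without replicate number 3. H4bc24, the table's symbol for the neighbouring H2B gene Hist1h2br, had no named probe.

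H2bc21 (Hist2h2be) measured 0.14, -0.17 and 0.13 in GGCT-OE cells, against 0.54, 0.44 and 0.61 in empty cells. The groups did not overlap, and the difference was -0.49 ± 0.12 (SE, limma adjusted p = 0.0200). A second probe of the gene gave -0.42. The call was lost without empty replicate 1, without empty replicate 3, without replicate number 2 or 3, and with no filter on dim probes.

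**Figure D3:**
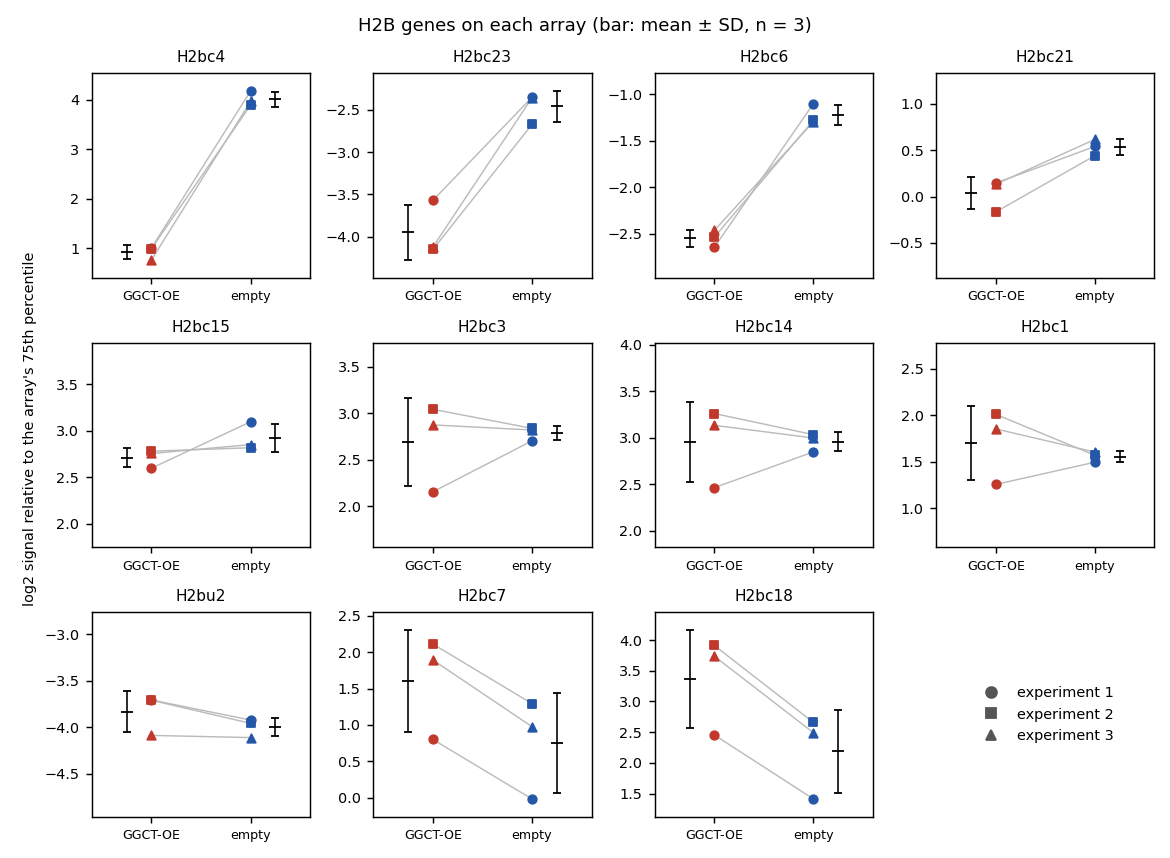
Level on each array (log2 signal relative to the array's 75th percentile, vertical axis) of the 11 tested H2B genes, ordered by difference, GGCT-OE left and empty right, with lines joining arrays of 1 experiment and bars for the mean ± SD (n = 3). H2bc4, H2bc23, H2bc6 and H2bc21 are lower on every GGCT-OE array, and H2bc18 and H2bc7 are higher within each experiment while their groups overlap.

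The number of RefSeq transcripts was not used to choose the genes. The RefSeq table gives more than 1 transcript to 5 of the 71 genes, and 3 of these were tested: H2bc4, H2bc6 and H2bc23. All 3 were called lower. Of the 42 tested genes with 1 RefSeq transcript, 21 were called higher and 1 (H2bc21) lower. Over all features these shares were 17.5% and 17.3%. All 5 genes are H2B genes and no H2B gene was called higher, so the 2 sets also differ in histone class. The pattern was noticed after the values were seen, and which transcript a probe measures was not tested.

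The other H2B genes were not called without the block. H2bc18 (Hist2h2bb) measured 2.45, 3.91 and 3.74 in GGCT-OE cells, against 1.41, 2.66 and 2.49 in empty cells. It was higher in each experiment, but the lowest GGCT-OE array lay below 2 of the empty arrays. Its difference was 1.18 ± 0.49 (SE, limma adjusted p = 0.115). H2bc7 (Hist1h2bf) showed the same layout, with 0.80, 2.11 and 1.89 in GGCT-OE cells and -0.02, 1.29 and 0.98 in empty cells. With the experiment number as a block these were the only H2B genes called higher.

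H2bc1, H2bc3, H2bc14 and H2bc15 were lower on slide 1, and of these only H2bc15 was not higher on slide 2. Their differences lay between -0.55 and -0.24 on slide 1 and between -0.07 and 0.35 on slide 2. H2bc3 (Hist1h2bb) measured 2.16, 3.04 and 2.88 in GGCT-OE cells, against 2.70, 2.84 and 2.82 in empty cells, so the empty arrays lay inside the GGCT-OE range. Its probes disagreed, with a difference of -0.10 on the brighter and 0.41 on the dimmer. H2bc1 encodes TH2B, the testis H2B, and had a difference of 0.15 ± 0.20 (SE). H2bu2 (Hist3h2ba) had 0.16 ± 0.13 (SE).

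Of the 7 tested H3 genes 4 were called higher and none lower, beside 17.5% and 17.3% of all features. Their median difference was 0.83. H3c1 (Hist1h3a) measured -2.11, -1.62 and -1.87 in GGCT-OE cells, against -3.66, -3.28 and -3.34 in empty cells. The groups were well apart, and the difference of 1.56 ± 0.17 (SE, limma adjusted p = 0.00124) was the highest among the 45 genes. It was 0.80 with normexp background correction. H3c11 (Hist1h3i) measured -0.69, -0.38 and -0.69 in GGCT-OE cells, against -1.81, -1.50 and -1.49 in empty cells, with no overlap and a difference of 1.02 ± 0.14 (SE, limma adjusted p = 0.00297). H3c3 (Hist1h3c) measured 4.02, 4.09 and 3.99 in GGCT-OE cells, against 3.16, 3.28 and 3.15 in empty cells. Its arrays lay close together within each group, and the difference was 0.84 ± 0.081 (SE, limma adjusted p = 0.000904).

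These 3 H3 calls held in each of the 21 alternatives. H3c13 was called higher by 0.83 ± 0.19 (SE, limma adjusted p = 0.0175). That call was lost without GGCT-OE replicate 2, without GGCT-OE replicate 3, without replicate number 2 or 3 and with no filter on dim probes. H3c4, H3c7 and H3c8 had differences of 0.20, 0.81 and 0.42 and were not called. The groups did not overlap for any of the 7 H3 genes, beside 25.4% of all features separated with GGCT-OE higher. With the block all 7 were called higher, beside 27.3% of all features.

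H4 genes were called higher in 4 of 9 cases and lower in none, beside 17.5% and 17.3% of all features. Their median difference was 0.75. H4f16, which the table also lists under a Hist4 name, measured 4.01, 4.24 and 4.16 in GGCT-OE cells, against 3.26, 3.51 and 3.40 in empty cells. The groups did not overlap, and the difference was 0.75 ± 0.11 (SE, limma adjusted p = 0.00345). H4c14 (Hist2h4) measured 6.32, 6.60 and 6.50 in GGCT-OE cells, against 5.54, 5.98 and 5.82 in empty cells. It too was separated between groups, by 0.70 ± 0.14 (SE, limma adjusted p = 0.0124). H4c12 and H4c17 were called higher by 0.77 and 0.81 (limma adjusted p = 0.0246 and 0.0494). A second H4c12 probe gave 0.80, overlapped between groups and was not called. All 4 calls were lost without replicate number 3, those of H4c14, H4c12 and H4c17 also without number 2 and with no filter on dim probes. Those of H4c12 and H4c17 were lost without GGCT-OE replicate 2 or 3 or empty replicate 3. The call of H4c17 was also lost without empty replicate 1 or 2, and it held in 9 of the 21 alternatives.

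H4c3, H4c4 and H4c11 had differences of 0.80, 0.65 and 0.76 and were called higher with the block only. H4c4 measured 7.36, 7.96 and 7.93 in GGCT-OE cells, against 6.65, 7.35 and 7.30 in empty cells. Its groups were barely separated, and experiment 1 was lowest in each. H4c8 and H4c9 were not called in any of the 21 alternatives, both with a difference of -0.12.

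Many of the uncalled genes carried a shift between slides. For 17 of the 45 genes the mean on slide 2 exceeded that on slide 1 by more than 0.42, the 90th percentile of all features, and the shift reached 1.53 for H1f2. Of these 17, 4 were called higher without the block and 15 with it, beside 17.5% and 27.3% of all features. Of the other 28, 17 were called higher and 4 lower without the block, and 19 higher with it. The 17 were 4 of the H1 genes, 2 H2A genes, 4 H2B genes, 2 H3 genes and 5 H4 genes. Slide, scan and experiment number coincide for experiment 1, so they cannot be told apart.

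**Figure D4:**
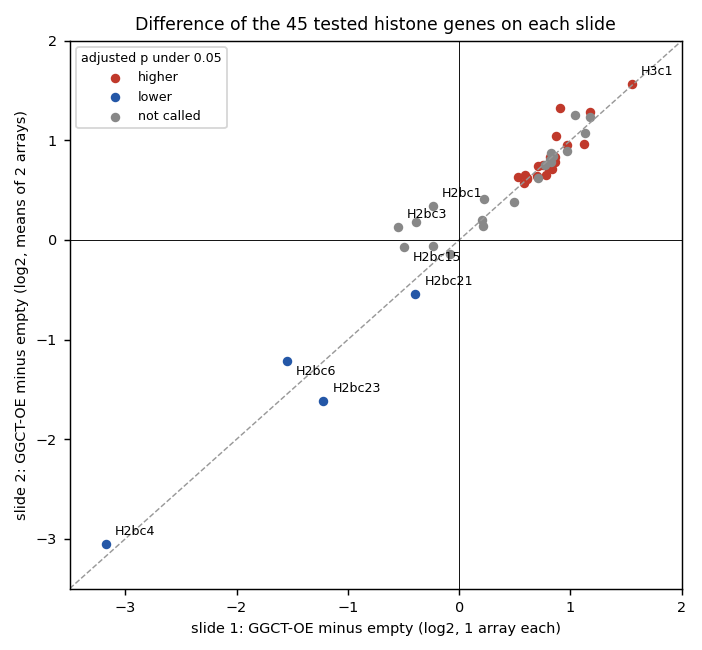
Difference between GGCT-OE and empty cells on slide 1 (1 array a group, horizontal axis) and on slide 2 (means of 2 arrays a group, vertical axis), both log2, for the 45 tested histone genes, with the dashed line marking equal differences. The 21 genes called higher lie above 0 on both slides, the 4 genes called lower lie below 0 on both, and H2bc1, H2bc3 and H2bc14 change sign between slides.

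By position, the Hist1 genes form runs on chromosome 13, the Hist2 genes a run on chromosome 3, and the Hist3 and Hist4 genes lie on chromosomes 11 and 6. Both higher and lower genes occurred within runs. The Hist2 run had 5 higher and 1 lower of 7 tested, beside 17.5% higher and 17.3% lower over all features. The largest run on chromosome 13, which ends at H2ac1, had 5 higher and 2 lower of 20 tested, beside the same shares. That run also holds Hfe, the haemochromatosis gene, with 2 genes between it and H2bc4 in the table. Hfe measured -4.17, -4.73 and -4.58 in GGCT-OE cells, against -0.66, -0.48 and -0.54 in empty cells. The probe was well above background on 2 of 3 GGCT-OE arrays, so Hfe entered the test only through the empty arrays. Its groups were far apart, and its difference of -3.93 is a description. It was 1 of only 2 other genes tested inside the runs. The second, Gm20627 in the Hist2 run, was lower by 2.19 ± 0.27 (SE, limma adjusted p = 0.00210). With normexp background correction the differences were -2.06 for Hfe and -0.97 for Gm20627. A shared source of the Hfe and H2bc4 differences was not tested.

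Of 28 tested genes that make and process histone mRNA, 12 were higher and 3 lower, beside 17.5% and 17.3% of all features. Their median difference was 0.27. Pou2f1, the octamer-binding factor, measured 0.99, 0.88 and 0.89 in GGCT-OE cells, against 0.03, -0.07 and -0.07 in empty cells, a difference of 0.95 ± 0.081 (SE, limma adjusted p = 0.000574). The mean over its probes was 0.63. Slbp, which binds the stem-loop, measured 0.58, 0.51 and 0.33 in GGCT-OE cells, against 0.00, -0.30 and -0.16 in empty cells, and did not overlap between groups (difference 0.63 ± 0.12, SE, limma adjusted p = 0.00875). Cdk2, whose kinase phosphorylates NPAT, was higher by 0.70. Npat itself differed by 0.23 ± 0.16 (SE) and was not called. Lsm10, a subunit of the U7 snRNP that cleaves histone pre-mRNA, was lower by 0.78, while Lsm11, its partner, had a difference of 0.38 and was not called. Tut7, a terminal uridylyltransferase, and Ncbp2, a cap-binding subunit, were lower by 0.59 and 0.57. The calls of Pou2f1 and Lsm10 held in each of the 21 alternatives, those of Slbp, Cdk2, Tut7 and Ncbp2 were lost without replicate number 3, and those of Slbp and Tut7 also without number 2.

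Replication-independent histones, which are made outside S phase as well, were higher in 6 of 12 cases and lower in 1, with a median of 0.36. Over all features 17.5% were higher and 17.3% lower. Cenpa, the centromeric H3 variant, measured 3.43, 3.79 and 3.59 in GGCT-OE cells, against 2.32, 2.65 and 2.52 in empty cells, a difference of 1.11 ± 0.14 (SE, limma adjusted p = 0.00205). H2az1 and H2az2, which encode H2A.Z, were higher by 0.58 and 0.53, H2ax, the variant phosphorylated at DNA breaks, by 0.44, and Macroh2a2 by 0.41. H3f3a and H3f3b, which encode H3.3, differed by 0.23 and 0.03 and were not called. Hils1, a spermatid linker histone, was not well above background on any GGCT-OE array and at least 1.56-fold lower there. It entered the test only through the empty arrays, so its call, the only lower one of the list, lends the list no support. Without replicate number 3 none of the 7 calls of this list held, and Cenpa alone kept its call without number 2. The calls of H2az2 and H2ax were also lost without empty replicate 2 or 3, that of H2ax without GGCT-OE replicate 2, and that of Hils1 without GGCT-OE replicate 1 or any 1 of the empty arrays.

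Chaperones and assembly factors had 12 of 27 tested genes higher and 2 lower, beside 17.5% and 17.3% of all features, with a median of 0.31. Chaf1a, the large subunit of the assembly factor CAF-1 that loads new H3 and H4 at forks, measured 2.49, 2.83 and 2.55 in GGCT-OE cells, against 1.50, 1.74 and 1.63 in empty cells, a difference of 1.00 ± 0.13 (SE, limma adjusted p = 0.00220). Its partner Chaf1b had 0.23 and was not called. Asf1a, an H3 and H4 chaperone, and Hat1, which acetylates new H4, were higher by 0.77 and 0.70, and Tonsl, a reader of new H4, by 0.53. Ipo4, an importin for H3 and H4, was lower by 0.82. Without replicate number 3 the calls of Chaf1a, Asf1a, Hat1, Tonsl and Ipo4 were lost, and without number 2 those of Asf1a, Hat1 and Tonsl.

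The probe of mouse Ggct was higher by 0.62 ± 0.12 (SE, limma adjusted p = 0.0111) in GGCT-OE cells, a call lost without replicate number 2 or 3, and whether its probe reads the transgene was not tested. The share of probes well above background ran from 54.6% to 61.7% over the arrays. Of 10 fibroblast markers 9 were tested, and Fap stayed at background. Among the 9, 1 was higher (Pdgfra) and 4 were lower (Col1a1, Col1a2, Col3a1 and Pdgfrb), beside 17.5% and 17.3% of all features. The median difference of the 9 was -0.31. Their median level was 6.04 in GGCT-OE cells and 7.04 in empty cells, in both groups the level of Col1a1. Among markers of other cells, Epcam and Cdh1 (epithelial), Ptprc and Lyz2 (blood) and Kdr and Tek (endothelial) stayed at background on all arrays. Others were well above background on all arrays: Krt8 and Krt14 (epithelial, differences 1.18 and -1.46), Cd68 (blood, -0.27) and Pecam1 (endothelial, 0.43). The endothelial Cdh5 entered the test only through the GGCT-OE arrays and was at least 2.18-fold higher there. Over these lists, 3 of 6 epithelial markers were tested (1 higher, 1 lower), 1 of 5 blood markers (1 lower) and 2 of 4 endothelial markers (2 higher). The same shares of all features stand beside these counts. The endothelial calls were those of Pecam1 and Cdh5, and that of Cdh5 lends the list no support. The part of these markers in the histone results was not tested.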

How the data were processed

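Gene expression was measured on 6 Agilent 1-colour arrays, from total RNA that was made into Cy3 cRNA with the Low Input Quick Amp kit, per the labels' protocols. The deposited scanner files hold spot intensities from Agilent Feature Extraction 12.1.0.3, background-subtracted and detrended per the file headers. The deposited series table holds log2 values that equalled the log2 processed intensity minus a constant on each array (correlation 1), so no centring over arrays was seen, and its column medians lay between -3.88 and -3.70. From the intensities, the 3671 control spots and 578 outlier spots were left out, and log2 of the processed signal minus the array's 75th percentile was taken. No spot was saturated, and the 75th percentile lay between 380.0 and 471 units. Accessions named 34545 of 56570 probes through the RefSeq table of GRCm38.p6. The array's grid names another build (mm9), so that table gave only names, transcript numbers and gene order, and the promoter windows are RefSeq's own. A gene is its brightest probe, tested if all 3 arrays of either group showed it well above background. limma 3.58.1 in R 4.3.3 (lmFit, eBayes, 2-sided, no block) was used, and the number of arrays limits the precision. The procedure was tested on simulated data, and figures were drawn with matplotlib 3.10.9.

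The members and lists were chosen with earlier results of these data known. Values on each array are given for called members with the smallest p (up to 14 a direction), the 6 brightest, those whose probes disagree, and up to 5 genes a related list. H1f5, H1f2, H2ac4, H2ac13, H2bc18, H2bc7 and H4c4 and the other genes named were chosen after their values were seen. Where all arrays of a group left a gene at background, a bound is given, in which each dim array counts at its own value or, if higher, at the lowest signal that any probe reached above background there.

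Deviations from the group means correlated between arrays of the same number, at 0.731, 0.453 and 0.358 across features. Arrays of unlike number on slide 2 correlated almost as much, at 0.343 (GGCT-OE 2 with empty 3) and 0.300 (GGCT-OE 3 with empty 2). The titles' numbers were taken as pairs, though these correlations hardly separate a shared number from a shared slide. Alternatives were quantile normalization, a median shift, normexp on median spot signals with an offset of 50, averaged or single probes instead of the brightest, no filter, a filter on all 6 arrays, a trended robust variance, the replicate number or slide as a block, the deposited values, slide 2 alone, and leaving out arrays or replicate numbers. The normexp signals were then quantile normalized, so values given with normexp carry both changes. Counting the 9 H2A probes as 1 was added after seeing the data.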

Additional observations from a re-analysis of the deposited data

How the results depend on the processing

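None of the 25 called genes changed sign in the 21 alternatives (20 for H1f1, which is not tested with a filter over all 6 arrays), and 5 higher (H2ac21, H2aw, H3c11, H3c3 and H3c1) and 2 lower (H2bc4 and H2bc6) kept their call in each. The 21 genes called higher became 34 with the replicate block, 34 with the slide as a block, 32 on slide 2 alone, 10 with no filter on dim probes (44914 features adjusted together) and 13 with the 9 H2A probes as 1, and lay between 5 and 32 when arrays or replicate numbers were left out. The genes called lower lay between 2 and 4 in those runs and stayed at 4 with the replicate block. Over all features 4178 were higher and 4115 lower. With the replicate block these were 6514 and 6211, with a slide block 6584 and 6207, and with no filter 2228 and 2498. With arrays left out they lay between 777 and 4622 and between 1153 and 4565. The median difference of 0.73 was 0.79 with quantile normalization, 0.66 with no filter, and 0.60 to 0.77 with arrays left out. Differences of 4 uncalled replication-dependent genes changed sign. H2bc14 was -0.0071 and became 0.027 with quantile normalization, 0.017 with normexp and 0.18 on slide 2 alone, and lay between -0.16 and 0.24 with arrays left out. H2bc3 became 0.16 as the mean of its probes, 0.13 on slide 2 alone, and lay between -0.27 and 0.17 with arrays left out. Over those runs H1f2 lay between -0.13 and 0.89, lowest without empty replicate 1, and H2bc1 between -0.0014 and 0.38, lowest without GGCT-OE replicate 2. H3f3b, at 0.03, became -0.021 as the mean of its probes and lay between -0.0018 and 0.086 with arrays left out. The causes of these moves were not tested. Dim probes limit H1f1, H2bc6, H2bc23, H3c1 and H2ac21, whose differences were smaller with normexp.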
